A study of Mus musculus with 4 samples.

Results

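Prom1 encodes prominin-1, the membrane protein that carries the CD133 epitopes and one of the markers by which the cells of these libraries were sorted. All 19 transcripts of the gene in the deposited abundance files are described here, of 99567 transcripts in all. They were chosen by gene, through the GENCODE M21 annotation, and not by their measured values. The gene (ENSMUSG00000029086.15) lies on the minus strand at chr5:43993620-44102032 of mm10 (GRCm38).

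Prominin-1 is a glycoprotein that crosses the membrane several times, binds cholesterol and gathers on thin protrusions of the plasma membrane such as microvilli and cilia. In the adult brain it is used to sort neural stem cells of the subventricular zone, and ependymal cells also carry it on their cilia. The gene is known for alternative first exons, which change the untranslated 5′ end, and for short cassette exons, which change the extracellular and cytoplasmic parts of the protein.

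The series holds 4 libraries of 1 group, so no comparison between groups was possible. Per the labels these are untreated, activated, EGFR-positive adult neural stem cells that were positive for Prom1, EGFR and GFAP, taken by flow sorting from gfap:GFP transgenic mice, in which the Gfap promoter drives the fluorescent reporter. The mice were 3 months old and of mixed CD1 and C57BL/6 background. The design text of the series speaks instead of quiescent cells after injection of artificial cerebrospinal fluid or of miR204 antagomers, and the labels were followed. The labels name no antibody against prominin-1 and do not say that the libraries came from separate mice, so p-values measure only the spread between these libraries, which may be technical.

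The libraries held 16978938 to 23727664 estimated counts. Core genes of neural stem cells were called above 1 TPM (a transcript's share of all RNA per length, scaled to a fixed total) in 8 of 8 cases, with summed levels of 2231 to 2988 TPM. A call sets the mean log level of a gene against that of 1 TPM (limma on log2(TPM + 1), adjusted p under 0.05); 62.8% of 19914 genes tested were called above and 23.2% below. Markers of other cell types were present too: 10 of 10 ependymal, 8 of 8 oligodendrocyte, 6 of 6 microglial and 5 of 5 neuronal markers were called above 1 TPM. The ependymal Hydin and Dnah5 lost their calls without library 2 (adjusted p = 0.08716 and 0.1341, limma) or library 4 (0.07033 and 0.1167), and Dnah5 also without library 3 (0.1045). Of 6 endothelial markers 1 was above and 4 below, and Cdh5 was at 0 in all 4 libraries. The call of Tek was lost without library 1, 2 or 3. With edgeR's quasi-likelihood test the calls of Cldn5, Tek and Kdr were lost (adjusted p = 0.1144, 0.3722 and 0.1082). That of Kdr was also lost in CPM, without correction for length (adjusted p = 0.3571, limma). Of 5 choroid plexus markers 2 were above and 3 below, Ttr among the latter. Ttr's call was lost without library 2, 3 or 4 (adjusted p from 0.08615 to 0.155, limma). Those of Ttr and Aqp1 were lost with edgeR's quasi-likelihood test (adjusted p = 0.4022 and 0.1457), and that of Kl in CPM (adjusted p = 0.3725, limma). The summed level per library was 647 to 1309 TPM for ependymal, 742 to 2398 for oligodendrocyte, 82.4 to 316 for microglial, 1035 to 1282 for neuronal, 12.9 to 31.3 for choroid plexus and 3.63 to 5.58 for endothelial markers. In bulk RNA, fewer cells of a type and less RNA per cell cannot be told apart.

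The 19 transcript models comprised 12 annotated as protein-coding, 4 retained-intron, 2 processed and 1 nonsense-mediated decay model. Of the protein-coding models 10 spanned the whole coding region, and these held 7 different coding sequences. The models that took most of the reads differed by 4 short coding exons and by their first exon. Each of the 4 exons is a whole number of codons, so keeping or skipping it does not shift the reading frame. The exon of 27 bases (9 codons, chr5:44058626-44058652, minus strand, mm10) lies near the 5′ end of the coding region, which encodes the extracellular amino terminus. The exon of 18 bases (6 codons, chr5:44012499-44012516) lies further downstream. The exons of 24 bases (8 codons, chr5:44001270-44001293) and 69 bases (23 codons, chr5:44000777-44000845) lie next to each other near the 3′ end of the coding region, which encodes the cytoplasmic tail.

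The sequences are shown because these exons and joints are what distinguishes the main isoforms. They were read from the GENCODE M21 transcripts, 5′ to 3′ on the coding strand, with the alternative exon in capitals and 15 bases of the neighbouring coding sequence on each side in lower case.
27-base exon: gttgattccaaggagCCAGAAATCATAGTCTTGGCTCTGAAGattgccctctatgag
joint without the 27-base exon: gttgattccaaggagattgccctctatgag
18-base exon: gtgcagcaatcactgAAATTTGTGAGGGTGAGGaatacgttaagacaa
joint without the 18-base exon: gtgcagcaatcactgaatacgttaagacaa
24-base exon: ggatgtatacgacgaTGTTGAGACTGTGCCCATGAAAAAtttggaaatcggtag
69-base exon: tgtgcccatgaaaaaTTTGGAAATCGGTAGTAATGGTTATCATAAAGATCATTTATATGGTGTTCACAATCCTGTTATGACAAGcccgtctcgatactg
joint without the 24-base and 69-base exons: ggatgtatacgacgacccgtctcgatactg
joint with the 24-base but not the 69-base exon: tgtgcccatgaaaaacccgtctcgatactg
The 69-base exon has a GC content of 31.9%, against 44.4% in the 27-base exon, 44.4% in the 18-base exon and 41.7% in the 24-base exon.

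Prom1-202 has the longest coding sequence, 2601 bases, with the 27-base, 24-base and 69-base exons. Prom1-203 lacks the 27-base exon and keeps both tail exons, for a coding sequence of 2574 bases. Prom1-206 and Prom1-208 share a coding sequence of 2526 bases, with the 27-base and 18-base exons and neither tail exon. Prom1-205 and Prom1-207 share the shortest of these coding sequences, 2481 bases, which holds none of the 4 exons. The full-length models with counts are annotated to begin in 3 zones. Prom1-202, Prom1-203 and Prom1-206 begin at far upstream first exons, and Prom1-205 and Prom1-216 at middle ones. Prom1-207 and Prom1-208 begin at the near site, the exon that holds the start codon. That exon, with the same ends, follows the first exon in the far and middle models, so no sequence marks a near start. Prom1-211 is a partial model of 5 exons at the 3′ end, with the 24-base but not the 69-base exon.

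**Figure D1:**
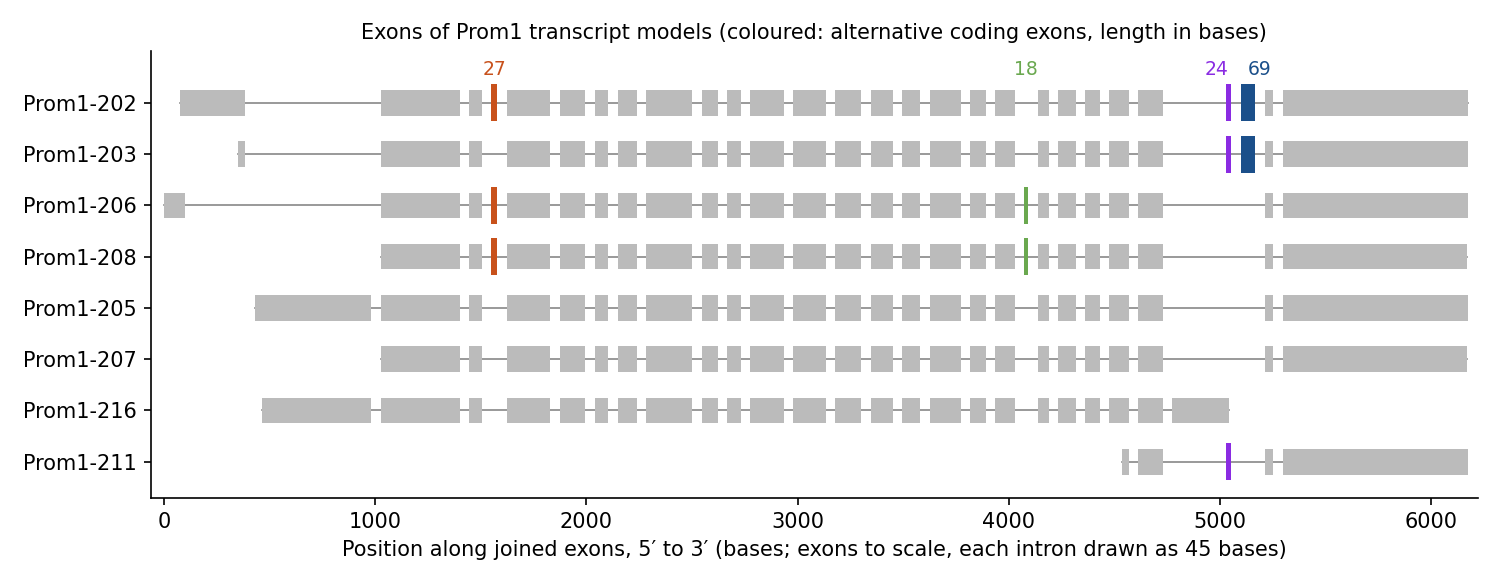
Exon structure of 8 of the Prom1 models, drawn 5′ to 3′ along the joined exons in bases, with exons to scale and each intron drawn as 45 bases; coloured boxes are the 27-base, 18-base, 24-base and 69-base exons. Prom1-202 and Prom1-203 hold both tail exons and start far upstream, while Prom1-207 and Prom1-208 start at the near site and hold neither tail exon.

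The models overlap so far that reads often cannot tell them apart. Of the words of 31 bases by which the authors' tool could match reads (31 is the tool's usual setting, taken here because the setting used is not given in the sources used here), Prom1-202 holds 2 that no other Prom1 model has, Prom1-206 holds 99, Prom1-205 holds 33 and Prom1-211 holds 29. Prom1-203 holds none of its own, the whole of Prom1-207 is contained in Prom1-205, and the whole of Prom1-208 is contained in Prom1-206. Their levels therefore rest on how the estimate divides shared reads among overlapping models. Words shared with other genes occurred only in the retained-intron model Prom1-219, in 135 of its 964 words, among 98187 transcripts searched. An antisense gene, Gm16401, and a gene on the same strand, Gm42716, overlap Prom1 and were not analysed here; the cDNA kit does not mark strand.

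Prom1 RNA was present in all 4 libraries. The summed level over its transcripts was 22.1, 14.6, 31.7 and 23.8 TPM in libraries 1 to 4, from 1109, 617, 1147 and 1203 estimated counts. Library 2 was lowest and library 3 highest. The mean was 23.1 ± 7.01 TPM (SD, n = 4), a log2 difference from 1 TPM of 3.54 (SE 0.18, adjusted p = 4.7e-06, limma on log2(TPM + 1)). With 62.8% of genes tested called above 1 TPM, the call by itself says little about Prom1. The coefficient of variation over the 4 libraries was 0.304, against a median of 0.176 over 9433 genes of at least 10 TPM, of which 15.5% varied more.

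Beside the other sort markers Prom1 RNA was the lowest in each library. Gfap, the astroglial intermediate filament whose promoter drives the reporter, was at 117, 147, 227 and 107 TPM in libraries 1 to 4. Egfr, the receptor for epidermal growth factor, was at 73.7, 71.5, 91.9 and 121 TPM. Prom1 was lower than Gfap by a mean log2 ratio of -2.63 ± 0.49 (SD, n = 4; 6.19-fold lower) and lower than Egfr by -1.93 ± 0.39 (3.81-fold lower), each in 4 of 4 libraries, on the log2(TPM + 1) scale. The exact sign-flip permutation test, two-sided, gave p = 0.13 for both, also after adjustment over the 2 pairs, which is the smallest p that 4 libraries allow.

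**Figure D2:**
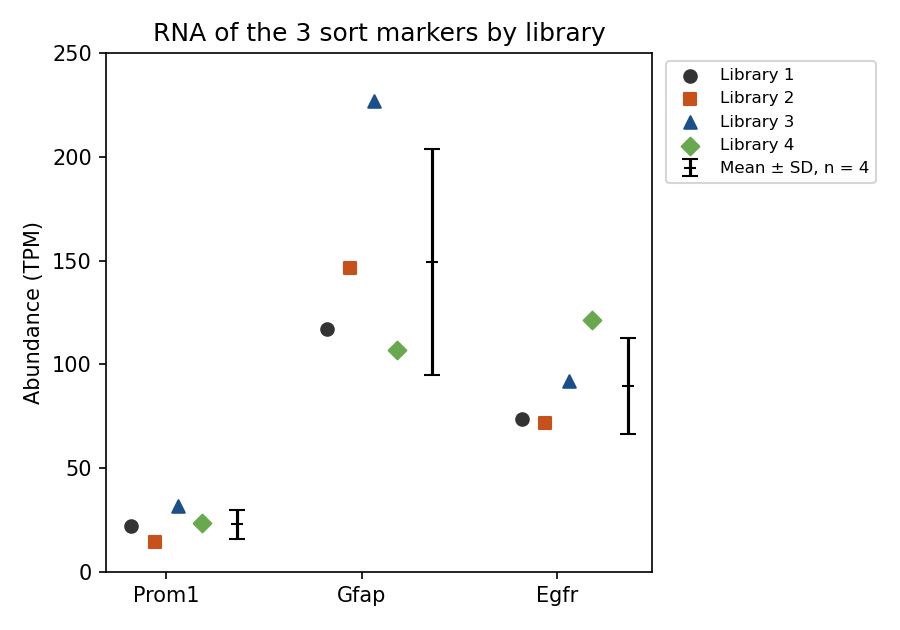
RNA level (TPM, y axis) of the 3 sort markers, Prom1, Gfap and Egfr, in each of the 4 libraries, with the mean and SD as a bar. Prom1 lies between 14.6 and 31.7 TPM, below the lowest Egfr value of 71.5 and the lowest Gfap value of 107.

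Most Prom1 RNA was assigned to protein-coding models. Their share of the gene's TPM was 93.6 ± 7.35% (SD, n = 4), and that of the other models was 4.30%, 17.2%, 0.577% and 3.57% in libraries 1 to 4. The log2 ratio of protein-coding to other transcripts was 3.47 (SE 0.48, adjusted p = 0.001284, limma; 11.1-fold), in a test where 66.3% of 10173 genes were called above 0 and 6.83% below. In CPM, without correction for length, the log2 ratio was larger (4.999, adjusted p = 4.7e-05, limma). By estimated counts, a view added after the values were seen, the other models, most of them short, held 1.06, 3.79, 0.146 and 0.769% of the gene. Full-length coding models alone held 89.5, 74.3, 91.2 and 85.4% of the gene's TPM in libraries 1 to 4. Library 2 had the lowest share of full-length models and the lowest Prom1 level.

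Of the 19 models 12 reached 1 estimated count in some library and 5 in all 4: Prom1-202, Prom1-203, Prom1-207, Prom1-211 and Prom1-219. Prom1-201, Prom1-210, Prom1-212, Prom1-213, Prom1-214 and Prom1-218 were at 0 in all libraries, and Prom1-204 stayed under 1e-05 counts. In the shallowest library, 3 counts would correspond to 0.106 TPM for Prom1-204 and, at the other end of these 7 models, to 0.633 TPM for the short Prom1-210. These limits cover counting error only and not the division of shared reads. Amplified cDNA without molecular identifiers gives reads that are not independent molecules.

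Prom1-202, the isoform with the longest coding sequence, varied least in TPM of the 6 main isoforms. Its coefficient of variation was 0.293, against 0.386 to 1.32 for the other 5. By share of the gene's TPM, Prom1-211 varied less, from 6.17 to 11.05%, against 11.37 to 37.35% for Prom1-202. The shares of Prom1-203, Prom1-206, Prom1-207 and Prom1-208 each fell under 1% in some library. Prom1-202 was at 4.84, 5.46, 3.61 and 7.34 TPM in libraries 1 to 4, from 288, 302, 151 and 446 estimated counts. No library fell under 3.61 TPM, and the mean was 5.31 ± 1.56 TPM (SD, n = 4). Of the 13 Prom1 transcripts with any count it was the only one called above 1 TPM (log2 difference 1.63, SE 0.20, adjusted p = 0.00097, limma), where 30.9% of 69005 transcripts tested were. Another 5 were called below 1 TPM, where 29.1% of all transcripts tested were: Prom1-204, Prom1-205, Prom1-209, Prom1-215 and Prom1-216. With edgeR's quasi-likelihood test 0 were called below, and with a minimum mean of 5 estimated counts 0 were, since these 5 then leave the test. The median log2 difference from 1 TPM over all transcripts tested was -0.05.

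Prom1-203, which lacks the 27-base exon, had the largest SD. It was at 0.113, 3.79, 16.3 and 3.03 TPM in libraries 1 to 4, from 6.21, 193, 626 and 170 estimated counts. It stood far above the rest in library 3 and was close to absent in library 1. Its mean of 5.80 ± 7.15 TPM (SD, n = 4) was the highest of all Prom1 transcripts but came to 2.31 TPM without library 3, and its log2 difference from 1 TPM did not pass the test (1.13, SE 0.64, adjusted p = 0.1852, limma). Without library 1 it did (1.79, adjusted p = 0.03257, limma).

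Prom1-207, the near-start isoform without any of the 4 exons, had the reverse order of libraries. It was at 12.2, 0.268, 0.146 and 7.95 TPM in libraries 1 to 4, from 642, 13.1, 5.40 and 428 estimated counts. Libraries 1 and 4 were high and libraries 2 and 3 under 1 TPM. The mean was 5.13 ± 5.95 TPM (SD, n = 4), or 2.79 TPM without library 1, and the test against 1 TPM was not passed (log2 difference 0.86, SE 0.73, adjusted p = 0.3656, limma). With edgeR's quasi-likelihood test on the estimated counts, Prom1-203 (log2 2.53, adjusted p = 0.004464) and Prom1-207 (log2 2.35, adjusted p = 0.01514) were called above 1 TPM as well.

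The isoforms with the 18-base exon were less abundant. Prom1-208, from the near start, was at 2.65, under 1e-05, 6.92 and 0.173 TPM in libraries 1 to 4; its mean of 2.44 ± 3.23 TPM came to 0.940 without library 3. Prom1-206, from the far start with the same coding sequence, was at 0, 0.926, 2.003 and 1.79 TPM in libraries 1 to 4. By the estimate, library 1 thus held Prom1-208 but not Prom1-206, and library 2 held Prom1-206 but not Prom1-208. Since Prom1-208 is wholly contained in Prom1-206, this split rests on how shared reads were divided. Prom1-211, the partial 3′ model, was at 1.36, 1.25, 2.61 and 2.62 TPM in libraries 1 to 4, a mean of 1.96 ± 0.758 TPM. This short model rested on 19.8, 16.9, 26.5 and 39.3 estimated counts. The test against 1 TPM was not passed by Prom1-206, Prom1-208 or Prom1-211 (adjusted p = 0.9949, 0.7317 and 0.1739, limma).

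In order of mean level the isoforms were Prom1-203, Prom1-202, Prom1-207, Prom1-208, Prom1-211, Prom1-206 and Prom1-219. Each neighbour in this order differed by less than the larger SD of the pair. Against the sum of all other transcripts of the gene, none of the 13 Prom1 transcripts was called above and all 13 were called below (limma), beside 8.87% above and 76.3% below among 60030 transcripts tested. All 13 log2 ratios were negative, so none was above at an unadjusted p either. The log2 ratio to the rest of the gene was -1.50 for Prom1-202 (SE 0.35, adjusted p = 0.00518, limma), -2.01 for Prom1-203 (adjusted p = 0.02465) and -2.27 for Prom1-207 (adjusted p = 0.03514). The call of Prom1-203 was lost without library 1 (-1.22) or library 4 (-1.87), and that of Prom1-207 without library 2 (-1.82) or library 3 (-1.41). With a pseudocount of 0.1 TPM both ratios were farther from 0 (-2.71 and -3.25) and neither passed the test (adjusted p = 0.05858 and 0.05772, limma). In CPM without correction for length they were -2.13 and -2.57 and did not pass either (adjusted p = 0.05591 and 0.05501, limma).

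**Figure D3:**
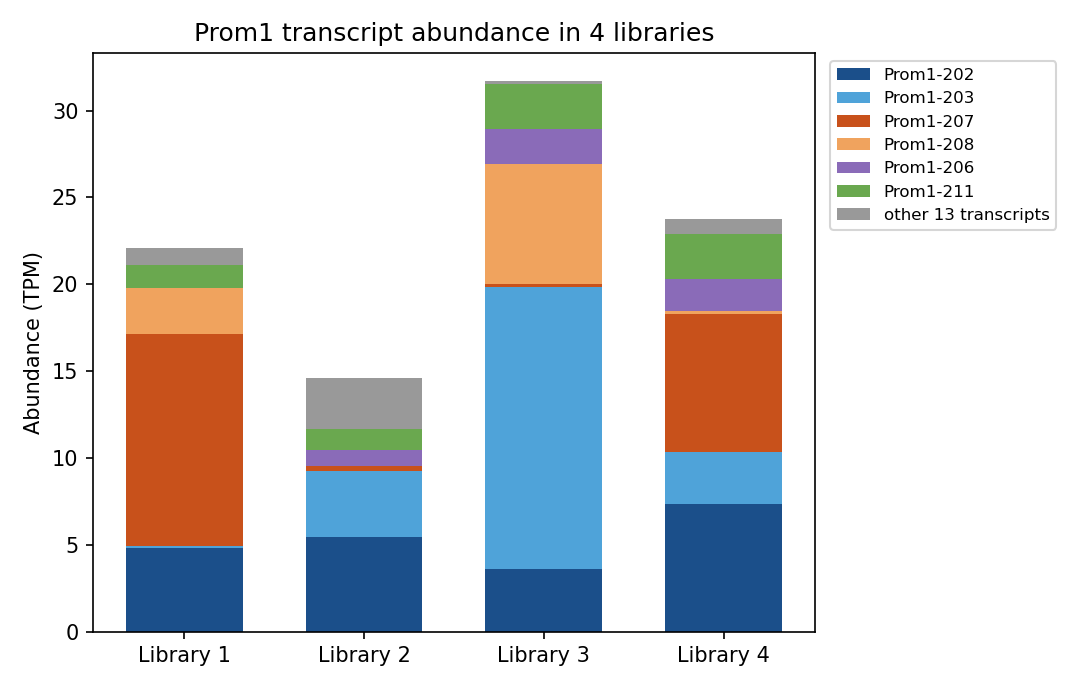
Stacked level (TPM, y axis) of Prom1 transcripts in libraries 1 to 4, 1 bar a library, with 6 isoforms coloured and the other 13 transcripts summed in grey. Prom1-207 is the largest block in libraries 1 and 4, Prom1-202 in library 2 and Prom1-203 in library 3, while Prom1-202 is present in all 4 at 3.61 to 7.34 TPM.

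The leading isoform thus differed from library to library. In library 1 it was Prom1-207 with 55.1% of the gene's TPM, in library 2 Prom1-202 with 37.4%, in library 3 Prom1-203 with 51.2%, and in library 4 Prom1-207 with 33.5% ahead of Prom1-202 with 30.9%. In the annotation Prom1-207 and Prom1-208 have transcript support level 5, the weakest, and Prom1-202 and Prom1-203 have level 1, the strongest. Prom1-202, Prom1-203 and Prom1-207 together held 77.5, 65.1, 63.1 and 77.1% in libraries 1 to 4. The remaining models with counts were small: Prom1-205, Prom1-209, Prom1-215, Prom1-216 and Prom1-217 were each found in 1 library only. The retained-intron model Prom1-219 was at 0.800, 1.11, 0.183 and 0.217 TPM, and part of its sequence is shared with other genes as given above. Prom1-217, a short noncoding model at the far start with a sequence wholly its own, rested on 10 estimated counts in library 2.

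The distance between a pair of libraries was taken as the summed absolute difference of transcript shares divided by its largest possible value, so 0 means the same shares and 1 means no overlap. For Prom1 the mean over the 6 pairs was 0.528. The closest pair was libraries 1 and 4 at 0.363 and the farthest libraries 1 and 3 at 0.689. The median was 0.146 over 9364 genes with at least 100 estimated counts in mean and more than 1 transcript with any count, however small. Of these genes 1.80% lay above Prom1. Among 6349 genes of at least 500 counts 0.110% lay above it. Among 1042 genes with at least 10 transcripts of 1 count or more 2.50% did. These limits were applied separately, and neither set was matched to Prom1 for how far a gene's transcripts share sequence. Summing transcripts with the same coding sequence gave 0.4997 for Prom1 and a median of 0.129, with 1.70% of genes above. Leaving out library 3 gave the lowest distance, 0.470, with 4.37% of genes above, and leaving out library 4 the highest, 0.607, with 0.769% above. These are descriptions without a test, since reads divided by estimate are not replicates.

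**Figure D4:**
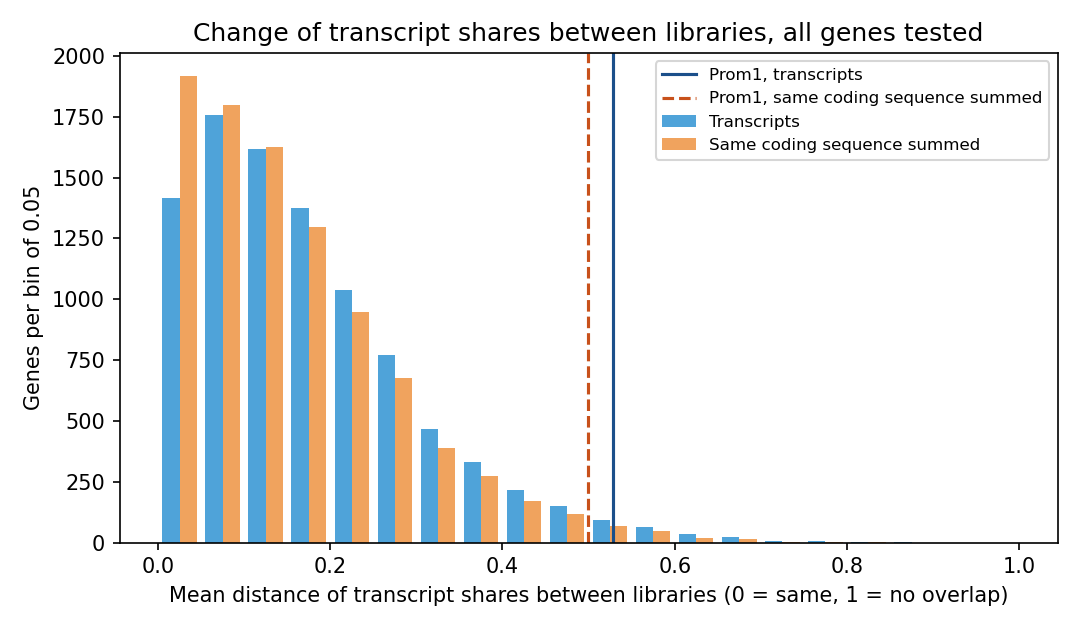
Number of genes (y axis) by mean distance of transcript shares between libraries (x axis, 0 to 1, in bins of 0.05), for transcripts and for transcripts with the same coding sequence summed; lines mark Prom1. Prom1 lies at 0.528 and 0.4997, in the upper tail, with 1.80% and 1.70% of the 9364 genes above it.

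Because the single isoforms overlap, their exons were also summed over all models that span them, a grouping chosen after the values were seen. The 27-base exon had the smallest SD of the 4 exons. It was held by 37.6, 58.8, 43.3 and 45.9% of the TPM of spanning models in libraries 1 to 4, a mean of 46.4 ± 8.97% (SD, n = 4), from 429, 350, 488 and 557 estimated counts of 1078, 577, 1119 and 1155. Forms with and without these extracellular residues were both present in each library.

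The exons of the cytoplasmic tail and the start site had a wider spread over the libraries, a difference in spread that was not tested. The 69-base exon was held by 23.4%, 78.2%, 63.0% and 45.3% in libraries 1 to 4, a mean of 52.5 ± 23.6% (SD, n = 4). The 24-base exon, which Prom1-211 also holds, gave 29.9, 88.8, 71.2 and 56.7% in libraries 1 to 4. By estimated counts the 24-base exon gave 28.6, 88.3, 70.1 and 54.9%, and the 69-base exon 26.8, 85.4, 67.8 and 51.6%. The far starts gave 25.04, 93.6, 75.6 and 59.97%, and the near start 75.0, 2.47, 24.4 and 40.0%. The near-start share came from Prom1-207 and Prom1-208, which have no sequence of their own. It therefore depends on how the estimate divides shared reads, and the far-start share depends on this with it. The order of libraries was the same for both tail exons and the far starts: library 1 lowest, then 4, 3 and 2. In the annotated models this is partly built in, since each model with a 69-base exon begins at the far starts, and Prom1-206 is the only counted full-length model that joins a far start to a tail without it. The 2 shares can therefore hardly move apart here, and whether start and tail are linked in single molecules was not tested.

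The 18-base exon was in the minority throughout. Its share was 13.4%, 8.52%, 30.8% and 9.69% in libraries 1 to 4, a mean of 15.6 ± 10.4% (SD, n = 4), with library 3 highest. The most distal last exon was used by 97.6% of TPM in library 2 and by 100% in the others, so the shorter 3′ ends of Prom1-201, Prom1-204, Prom1-214 and Prom1-216 took few or no reads.

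**Figure D5:**
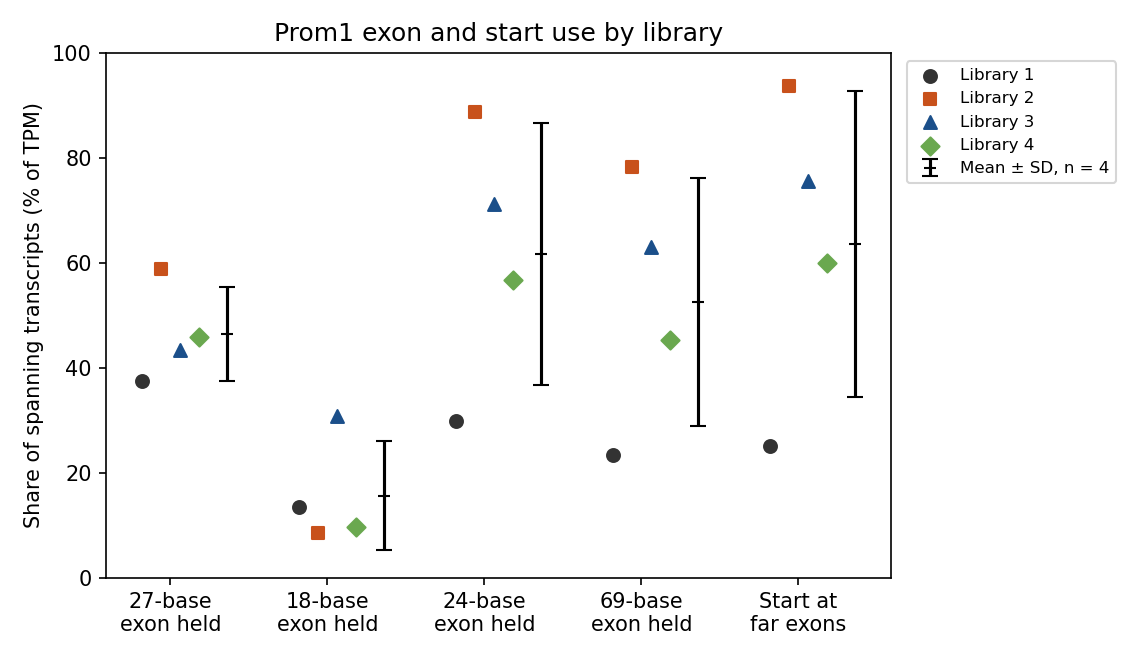
Share of the TPM of spanning Prom1 models (%, y axis) that holds each alternative exon or begins at the far first exons, with 1 symbol a library and the mean and SD of 4 libraries as a bar. The 27-base exon lies between 37.6 and 58.8%, while the 69-base exon runs from 23.4% in library 1 to 78.2% in library 2 and the far starts from 25.04 to 93.6%.

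By coding sequence, the share of full-length TPM in libraries 1 to 4 was 24.5, 50.3, 12.5 and 36.2% for the coding sequence of 2601 bases. For that of 2574 bases, which lacks the extracellular exon, it was 0.574, 34.8, 56.2 and 14.9%. The coding sequence of 2481 bases, without any of the 4 exons, took 61.6, 3.65, 0.504 and 39.2%. No coding sequence led in all libraries. The lowest share in any library was 12.5% for that of 2601 bases and 8.52% for that of 2526 bases, which holds the 18-base exon. These shares also depend on how the estimate divides shared reads, since Prom1-202 holds 2 words of its own and Prom1-203 none. Whether the exons of a coding sequence occur together in single molecules was not tested.

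The libraries also differed in the markers of other cells. Library 1, with the lowest share of far starts and of the 69-base exon, had the lowest summed ependymal (647 TPM), oligodendrocyte (742) and microglial (82.4) markers and the highest neuronal sum (1282, against 1035 to 1091 in the others). Library 2, with the highest share of far starts and the lowest Prom1 level, had the highest ependymal sum (1309), while the oligodendrocyte sum was highest in library 4 (2398, against 2075 in library 2) and the microglial sum in library 3 (316, against 222). Libraries 3 and 4 had ependymal sums of 876 and 1068 TPM. The part of these cells in the isoform shares was not tested.

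Genes tied to prominin-1 were mostly present. Of 10 relatives and reported partners 8 were called above 1 TPM, against 62.8% of all genes tested, with a median log2 difference of 3.72 against 2.15 over all genes. Prom2, the paralog prominin-2, was near the limit at 0.782 ± 0.299 TPM (SD, n = 4) and Cdhr1, a photoreceptor cadherin that binds prominin-1, was at 0.578 ± 0.781 TPM; neither passed the test (adjusted p = 0.2631 and 0.1347, limma). Without library 4 Cdhr1 was called below 1 TPM (log2 difference -0.76, adjusted p = 0.007741, limma). Ttyh1, a multi-span membrane protein of neural stem cells, was at 968 ± 123 TPM. Among partners, the kinases Fyn and Src were at 79.1 ± 11.3 and 28.8 ± 4.31 TPM, the deacetylase Hdac6 at 23.9 ± 9.50, the phosphatidylinositol 3-kinase subunit Pik3r1 at 21.3 ± 6.71 and the ciliary GTPase Arl13b at 10.8 ± 4.55. The highest Prom2 value of any library, 1.11 TPM, lay below the lowest Prom1 value of 14.6 TPM.

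Of 8 genes of membrane rafts and gangliosides, the lipid surroundings of prominin-1, 7 were called above 1 TPM, beside 62.8% of all genes tested, with a median log2 difference of 2.94 against 2.15 over all genes. The raft scaffolds Flot2 and Flot1 were at 62.5 ± 11.8 and 53.0 ± 3.12 TPM, and St3gal5, which makes the ganglioside GM3, at 25.9 ± 4.33 TPM. B3galt4 was at 2.90, 5.62, 1.29 and 0.0442 TPM in libraries 1 to 4, highest in library 2, and did not pass the test (mean 2.46 ± 2.40 TPM, adjusted p = 0.3361, limma). Of 4 RNA-binding proteins picked for their known roles in the inclusion of neural and photoreceptor exons, 4 were called above 1 TPM, beside the same 62.8% of all genes. Ptbp1 was at 210 ± 34.3 TPM, Ptbp2 at 78.3 ± 16.0, Msi2 at 33.4 ± 6.19 and Msi1 at 8.30 ± 1.55 (SD, n = 4). Ptbp1 was at 204, 218, 250 and 167 TPM in libraries 1 to 4.

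The genes whose level over the 4 libraries was most like that of Prom1, by the root mean square difference of library-centred log2(TPM + 1), were Efhd1 (0.0477), Dnase2a (0.0540), Lysmd2 (0.0631), Leo1 (0.0691) and Zmym4 (0.0700), of 9432 genes of at least 10 TPM with a median of 0.385. Efhd1, a calcium-binding mitochondrial protein, was at 18.2, 13.1, 27.2 and 19.5 TPM. With 4 libraries such likeness is a description only.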

How the data were processed

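Cells were flow-sorted into 4 libraries. Per the labels' protocols, RNA came from a small-sample kit, cDNA was amplified with a low-input kit and paired reads were sequenced. The submitters' processing notes name kallisto, sleuth and mm10, without versions or a transcript release. The deposited estimated counts are reads as divided among transcripts by estimation, per the file headers. The deposited TPM, per the file headers, divides these by effective length; recomputed values differed by at most 0.132 TPM.

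Of 99567 transcripts 98294 matched GENCODE M21 by identifier, giving 32564 genes, and the other 1273 (0.53 to 0.619% of counts, 2.59 to 4.56% of TPM) were left out. All 19 Prom1 models had the same length in the files and the annotation. Tests used limma 3.58.1 in R 4.3.3 with a mean-variance trend on log2(TPM + 1), two-sided, over all features with a count in any library, with Benjamini-Hochberg adjusted p under 0.05. TPM was chosen over counts as the main scale because the questions are about levels between transcripts; edgeR 4.0.16 (quasi-likelihood F test against a fixed mean, on rounded estimated counts with effective length offsets) and DESeq2 1.42.0 size factors were alternatives. Tests were checked on simulated data with independent counts for each transcript, which left out the division of shared reads. Named were all Prom1 transcripts, the other sort markers, genes of the lists and the 5 most alike genes of at least 10 TPM; within the lists, genes were picked for the text after their values were seen. The members, lists and tests were chosen with earlier results of these data known, and the exon, start and coding sequence shares after seeing the values. A protein sequence of Prom1 was not used here.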

Additional observations from a re-analysis of the deposited data

Results flagged for a closer look

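Of 43 transcript and gene levels looked at over the 4 libraries, 6 had a library far from the other 3; chance alone gives this in about 1 of 20 groups. For 5 rare Prom1 transcripts the others were at 0: Prom1-205 with 0.129 TPM in library 2, Prom1-216 with 0.295 TPM in library 2, Prom1-217 with 1.40 TPM in library 2, Prom1-209 with 0.150 TPM in library 1 and Prom1-215 with 0.632 TPM in library 4. A level of 0 in 3 libraries meets this rule whatever the fourth value is, and these rest on 7.35, 13.9, 10, 1.33 and 6.34 estimated counts. Ttyh3, a relative of Ttyh1, was at 163 TPM in library 3 against 115 to 121 TPM in the others.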

How the results depend on the processing

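No pairing of samples between groups was possible because the labels give 1 group. The Prom1 gene level stayed above 1 TPM in each alternative except with the most abundant transcript alone (log2 difference 1.13, adjusted p = 0.1328, limma). The count of Prom1 transcripts above 1 TPM was 1; it was 0 against a level of 5 TPM, 3 with edgeR and 1 to 2 with a library left out (2 without library 1). The count below 1 TPM was 5; it was 0 with a minimum mean of 5 estimated counts, which leaves out those transcripts, 9 against 5 TPM, 0 with edgeR and 3 to 5 with a library left out (3 without library 2, where fewer were tested). The count below the rest of the gene was 13, and 7 with that minimum, where fewer were tested. The protein-coding ratio kept its direction and passed the test in each alternative. The ratios to Gfap and Egfr kept their direction; with 4 or 3 libraries they could not pass the threshold. The distance of shares, which has no test, was 0.470 to 0.607 with a library left out.

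Of 97 values for single transcripts and genes, 64 kept direction and side in each alternative, 19 changed side and 14 changed sign in at least 1; the cause was not tested where none is given. Against 5 TPM the sign turned, by construction, for Prom1-203 (-0.45), Prom1-206 (-1.58), Prom1-207 (-0.73), Prom1-208 (-1.31), Prom1-211 (-1.06), Cav1 (-0.0668), B3galt4 (-1.10), Hydin (-0.71), Dnah5 (-0.85), Pecam1 (-0.30) and Clic6 (-0.0234). Prom1-206, at 0.00, turned with a pseudocount of 0.1 (-0.46), TMM (-0.00245), DESeq2 size factors (-0.00157) and without library 3 (-0.19) or 4 (-0.16), with -0.19 to 0.34 over the libraries left out. Prom1-208 turned with a pseudocount of 0.1 (-0.37) and without library 3 (-0.30, with up to 0.69 over the libraries left out). Prom2 turned when rescaled over nuclear protein-coding genes (0.0190) and in CPM (0.75), and Cdhr1 in CPM (0.0130). Over protein-coding transcripts alone St8sia1 (-0.19) and Pecam1 (-0.61) turned.

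The gene had 617 to 1203 counts a library. Several models have no sequence of their own, and the division between Prom1-203, Prom1-207, Prom1-208 and their neighbours has an error that these files do not give.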
